A study of Mus musculus with 16 samples.

Results

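Of the 16 LA-N-1 xenografts on the mouse arrays, 7 were compared here, all from mice given cinacalcet. The 3 numbered C9, C10 and C11 had the longest treatment and are called prolonged, and the 4 numbered C4, C5, C7 and C8 had shorter treatment. They were picked here by tumor number alone, with no value of the mouse arrays. The study had examined C9 to C11 apart after a heat map of human transcripts in these xenografts showed genes that changed in them. A further cinacalcet tumor, C6, was set aside as in the methods of the study, and the 8 vehicle tumors, V5 to V12, serve as background. LA-N-1 is a human neuroblastoma line with MYCN amplification, grown under the skin of young female athymic Nude-Foxn1 nu/nu mice, which received cinacalcet or its vehicle by oral gavage. The arrays hold the last 8 tumors excised in each arm, each from the RNA of a whole tumor on the Mouse Gene 2.1 ST array, whose probes are meant for host transcripts. Binding of human transcripts to these probes was not tested. Fewer host cells of a type and less RNA per cell cannot be told apart in such RNA. Mice were treated until the tumor reached its end volume, so nobody assigned the length of treatment, and treatment length and the slow growth of a tumor, or its longer stay in the host, cannot be told apart.

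Cinacalcet is a calcimimetic, a positive allosteric modulator of the calcium-sensing receptor, a G protein-coupled receptor that reads extracellular calcium. The host supplies the vessels, fibroblasts and leukocytes of a xenograft. Athymic nude mice lack the thymus in which T cells mature, but they keep macrophages, neutrophils, NK cells, B cells and antibody-secreting plasma cells.

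No probe set separated prolonged from shorter cinacalcet tumors after adjustment. The largest excesses in the prolonged tumors lay in genes of myeloid cells and of antibody-producing cells, and the largest deficits in genes of the epidermis, but most of these groups turned on 1 tumor or a pair of them. Of 10135 probe sets tested with limma, 0 passed an adjusted p under 0.05 (0%, smallest adjusted p = 0.114 by limma). With p at 0.01 or less before adjustment, limma listed 155 (1.53%), with 132 higher (1.3%) and 23 lower (0.227%) in prolonged tumors, where 101.4 would be listed by chance. At an unadjusted p under 0.05 there were 557 (5.5%), 447 higher (4.41%) and 110 lower (1.09%). Only 30 of the 155 name 1 gene, and all 30 were higher; 121 are unnamed here, 98 of them higher and 23 lower. These counts changed when single tumors were left out, with the filter and the variance prior set anew each time. Without C10, 111 probe sets passed the adjusted threshold, 104 higher and 7 lower, and without C4 57 passed, 53 higher and 4 lower. The same count was 13 without C9, 8 without C11, 4 without C5, 1 without C7 and 0 without C8. The prior degrees of freedom, the weight limma gives to the spread shared by all probe sets, changed as well. They were 12.7 with all 7 tumors, 26.9 without C10, 22.3 without C4, and between 15.7 (without C8) and 48.3 (without C9). The part of the tumor and of the prior in these counts was not tested.

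The arrays themselves were not equal. The interquartile range of the log2 signals was 2.14, 2.09 and 1.99 in C9, C10 and C11, against 2.08, 1.86, 2.06 and 1.83 in C4, C5, C7 and C8, so C5 and C8 were the most compressed. A score over 24 genes of common host cells was 6.01, 6.43 and 6.08 in the prolonged tumors, against 6.47, 5.08, 6.50 and 5.70 in the shorter ones, again lowest in C5 and C8. With the host score as a covariate, 81 probe sets were higher and 20 lower with p at 0.01 or less, against 115 and 34 after a second quantile normalization and 158 and 19 with each array set to the same median. The part of array spread or host content in any single difference below was not tested. The median difference was -0.04 on the log2 scale over 22179 genes and 0.19 over the tested probe sets.

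Adgre4, an adhesion receptor of myeloid cells, headed the genes that were higher in prolonged tumors. Its log2 signal was 5.63, 4.44 and 5.59 in C9, C10 and C11, against 3.79, 2.83, 2.82 and 2.31 in C4, C5, C7 and C8. All 3 prolonged tumors lay above all 4 shorter ones, as did 338 (3.33%) of the tested probe sets. The difference was 2.28 (standard error 0.49, adjusted p = 0.175 by limma), and the exact two-sided permutation test gave p = 0.0286, the smallest that 3 tumors against 4 allow. The vehicle tumors spanned 2.68 to 5.33 with a median of 3.61, and so overlapped the prolonged tumors. Cxcl13, the chemokine that draws B cells into follicles, had 10.11, 7.58 and 8.40 in the prolonged tumors, against 7.72, 3.20, 6.05 and 4.20 in the shorter ones. Here C4 stood slightly above C10, so the groups overlapped, with a difference of 3.41 (standard error 0.82, adjusted p = 0.307 by limma). In vehicle tumors Cxcl13 ranged from 3.98 to 9.18.

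Erdr1 and Mid1, which adjoin each other at the pseudoautosomal region of the mouse sex chromosomes, were also among the leading genes. The better Erdr1 probe set read 9.10, 10.45 and 8.38 in C9, C10 and C11, against 8.37, 6.25, 6.79 and 6.87 in C4, C5, C7 and C8. The groups did not overlap, but only by the width of the gap between C11 and C4 (difference 2.24, standard error 0.57, adjusted p = 0.307 by limma). A second Erdr1 probe set gave a difference of 1.66. Erdr1 has near-identical copies, so its signal may be shared between them. Mid1, a microtubule-bound ubiquitin ligase, read 7.01, 7.60 and 4.57 in the prolonged tumors, against 4.66, 4.01, 4.53 and 3.87 in the shorter ones. It was high in C9 and C10 alone, and C11 lay among the shorter tumors and inside the vehicle range of 3.42 to 5.17. Syne1, which encodes the nuclear envelope protein nesprin-1, was represented by a pair of probe sets among the leading genes. The first had 3.15, 2.54 and 5.44 in C9, C10 and C11, against 2.34, 1.55, 1.83 and 1.23 in C4, C5, C7 and C8, and the second differed by 1.98. C11 carried most of the excess, although the groups did not overlap.

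**Figure D1:**
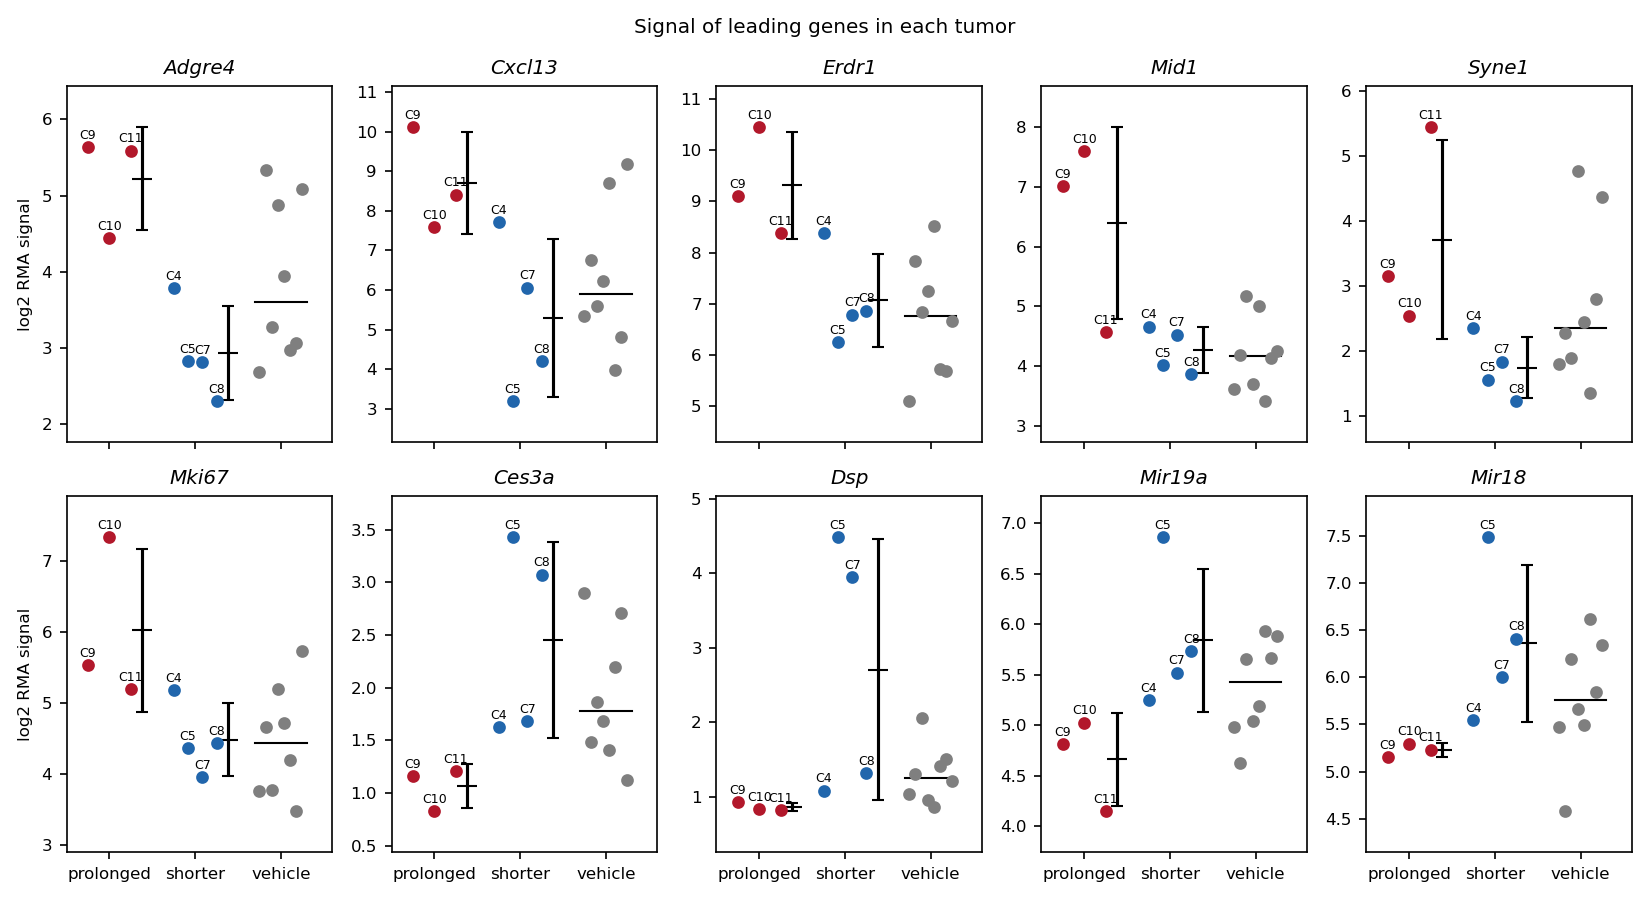
Log2 RMA signal of 10 leading genes (vertical axes) in single tumors, with prolonged cinacalcet in red, shorter cinacalcet in blue and vehicle in grey. Black bars with whiskers are the mean ± SD of the cinacalcet groups (n = 3 and 4) and black lines the vehicle medians. All 3 prolonged tumors lie above the 4 shorter ones for Adgre4, Erdr1, Syne1 and Mki67 and below them for Ces3a, Dsp, Mir19a and Mir18.

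Of the 30 named probe sets with p at 0.01 or less, 18 stand outside the 12 of smallest p and are given because of their values. Ptprc, the common leukocyte antigen CD45, had 7.89, 5.96 and 7.48 in C9, C10 and C11, against 7.03, 4.88, 5.13 and 4.27 in C4, C5, C7 and C8. Cd5l, a protein secreted by macrophages, had 4.99, 5.36 and 5.28, against 5.01, 3.21, 3.41 and 1.90 in the same order of tumors. In both genes C4 sat among the prolonged tumors and the other shorter tumors sat below. The same held for Fcgr4, an activating receptor for IgG, with 5.74, 4.95 and 6.75 in prolonged tumors, against 5.89, 3.32, 3.63 and 2.50 in shorter ones. Clec4a1, a lectin of myeloid cells, differed by 1.94, and Adamdec1, a protease of macrophages and dendritic cells, by 1.91. Cd244a, a receptor of NK and myeloid cells, differed by 1.33 with no overlap between the groups. Slpi, an inhibitor of neutrophil proteases, and H2-M2, a nonclassical class I molecule, were high in C9 and C11 only, with Slpi at 4.81, 1.68 and 5.14 in C9, C10 and C11 and between 1.63 and 1.99 in the shorter tumors. Xist, the RNA that coats the inactive X chromosome, read 6.94, 8.28 and 7.23 in the prolonged tumors, against 6.70, 4.86, 6.00 and 6.14 in the shorter ones, with no overlap.

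Immunoglobulin genes formed the largest group of leading genes, 10 of the 30. They report on B cells and plasma cells, which assemble each antibody chain from variable, joining and constant segments. The group was put together after its values were seen, and its 31 probe sets share sequence between segments. Igkv9-120, a variable segment of the kappa light chain, read 7.12, 0.47 and 8.91 in C9, C10 and C11, against 1.08, 0.71, 0.44 and 0.39 in C4, C5, C7 and C8. C9 and C11 stood far above every shorter tumor, whereas C10 lay among them, and the SD of the prolonged tumors (4.44) was close to the difference of 4.85 (standard error 1.22, adjusted p = 0.307 by limma). The joining segment Igkj1 had 7.60, 1.59 and 4.25 in the prolonged tumors, against 1.67, 1.27, 1.27 and 1.53 in the shorter ones. For a heavy chain segment, Igh-VS107, the values were 7.92, 1.51 and 3.78, against 1.65, 1.21, 0.60 and 1.09. The same order was seen in Jchain, which joins the units of secreted IgM and IgA, at 6.10, 1.02 and 5.41 in C9, C10 and C11, against 2.81, 1.33, 0.99 and 1.34 in C4, C5, C7 and C8 (difference 2.56, adjusted p = 0.595 by limma).

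Over the 31 immunoglobulin probe sets the difference was positive in 31, with a median of 1.77 (0.82 without C9, 2.67 without C10). Of the 20 that passed the filter, 17 were higher and 0 lower at an unadjusted p under 0.05 by limma. Over all tested probe sets these shares were 4.41% and 1.09%. The count cannot serve as a test, because the group was chosen from its values. High signal in C9 and C11 also helped its members to pass the filter. C9 exceeded all 4 shorter tumors in 30 of 31 probe sets, C11 in 26 and C10 in 2. The mean signal over the group was 5.04, 1.28 and 3.77 in C9, C10 and C11, against 1.77, 1.38, 1.26 and 1.56 in C4, C5, C7 and C8. High immunoglobulin signal was not limited to cinacalcet. The vehicle tumors V9 and V12 had means of 3.06 and 4.26, and the remaining vehicle tumors lay at 1.88 or below. V12 exceeded all 4 shorter tumors in 29 of the 31 probe sets and V9 in 22. A list of genes of B cells and plasma cells was mixed. It holds Jchain and also Ighm, read from 1 of the 31 immunoglobulin probe sets. Of its 16 measured members, 11 differences were positive and 5 negative, and the median difference of 0.44 shrank to 0.04 without C9. Of the 7 members tested, 3 were higher (against 4.41% of all tested probe sets) and 0 lower at an unadjusted p under 0.05. Ighm is among these 3, so the count overlaps with that of the immunoglobulin group and cannot serve as a test either. High signal in C9 and C11 can help such members to pass the filter too. Mzb1, an endoplasmic reticulum protein of plasma cells, read 3.30, 2.13 and 2.90 in the prolonged tumors, against 1.87, 1.93, 1.65 and 1.83 in the shorter ones. Cd79a, a signaling chain of the B cell receptor, read 3.90, 2.10 and 3.41, against 1.90, 2.47, 2.04 and 2.11. Tnfrsf17, a survival receptor of plasma cells, stood the other way with no overlap, at a difference of -0.24.

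**Figure D2:**
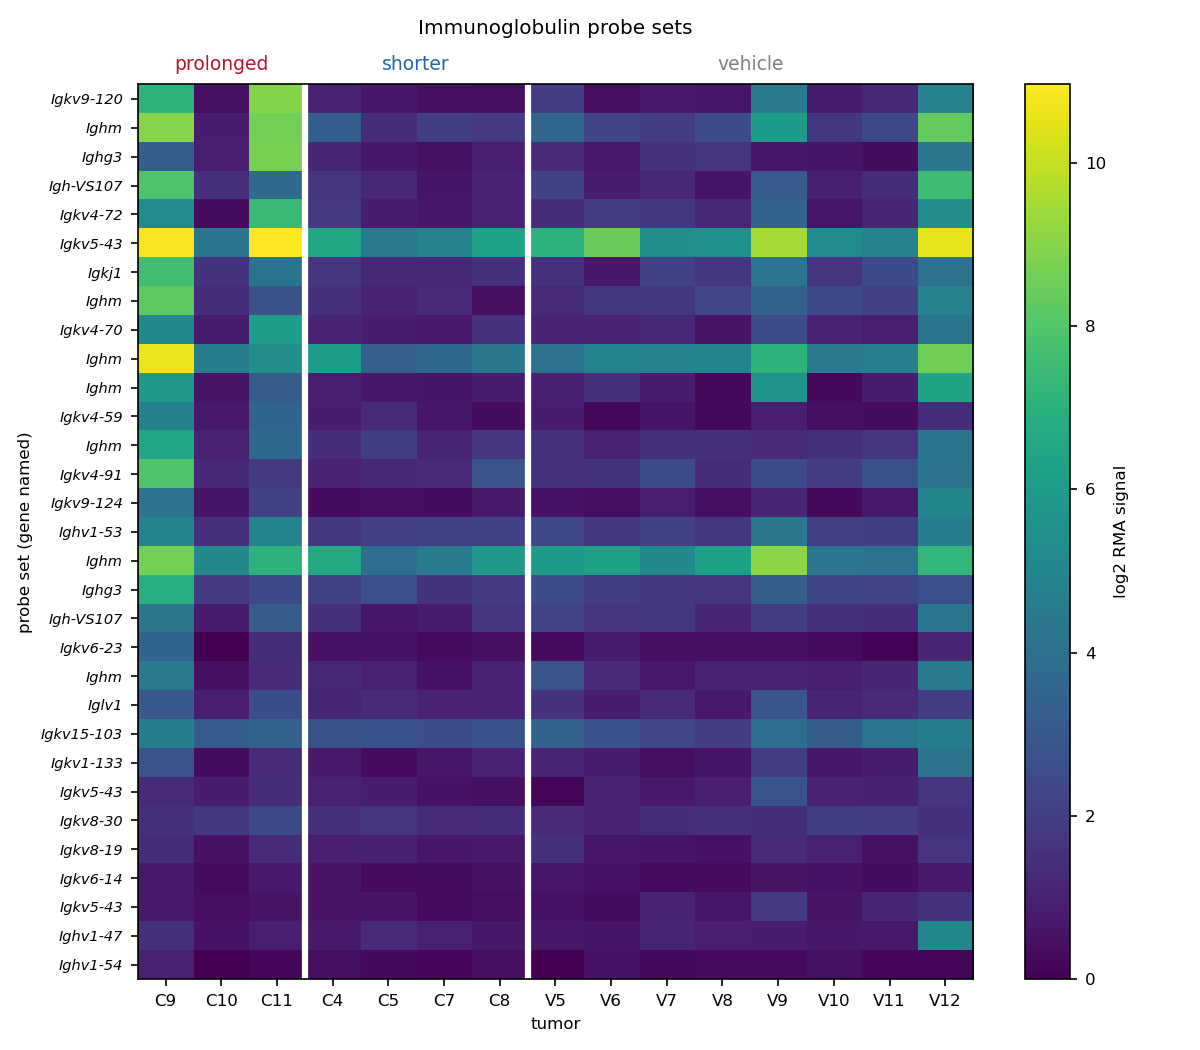
Log2 RMA signal (color) of 31 immunoglobulin probe sets (rows, ordered by the difference between prolonged and shorter tumors, some genes with several probe sets) in 15 tumors (columns). C9 and C11 are bright in many of the upper rows, as are V12 and, in fewer rows, V9 of the vehicle group. Many lower rows are dark in most tumors, and C10 and the 4 shorter tumors are dark in most rows.

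Macrophage genes were on average higher in prolonged tumors, but C4 was nearly as high as the highest of them. Of 22 measured members, 2 were higher (against 4.41% of all tested probe sets) and 0 lower at an unadjusted p under 0.05, and 20 of 22 differences were positive, with a median of 0.67. The list score was 6.24, 5.62 and 5.48 in C9, C10 and C11, against 6.20, 4.65, 5.39 and 4.39 in C4, C5, C7 and C8, and the vehicle tumors ranged from 3.87 to 6.00. Mertk, the receptor by which macrophages take up apoptotic cells, read 5.58, 4.27 and 5.15 in prolonged tumors, against 4.38, 3.004, 4.09 and 3.003 in shorter ones (difference 1.38, adjusted p = 0.702 by limma). Fcer1g, the signaling chain shared by Fc receptors, differed by 1.33 and the complement gene C1qb by 1.06. Adgre1, a surface marker of mouse macrophages, differed by 0.91, with C4 (6.56) level with C9 (6.53). Cd68, a lysosomal protein of macrophages, had 8.11, 7.59 and 7.08 in the prolonged tumors, against 7.58, 5.99, 6.94 and 6.11 in the shorter ones.

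Antigen presentation followed a like order. Of 18 measured genes of MHC class II and dendritic cells, 12 were tested. Of these, 4 were higher (against 4.41% of all tested probe sets) and 0 lower at an unadjusted p under 0.05. The median difference over the 18 was 0.41. H2-Ab1, a class II chain, read 9.52, 6.89 and 7.78 in C9, C10 and C11, against 8.69, 6.08, 6.09 and 4.33 in C4, C5, C7 and C8. Pla2g2d, a phospholipase of dendritic cells and macrophages, had 7.84, 5.25 and 5.41, against 5.16, 4.26, 4.69 and 3.94, with no overlap and a difference of 1.65 that was 0.81 without C9. Itgax, the integrin CD11c, differed by 1.32.

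Interferon-stimulated genes separated tumors rather than groups. The score over 29 measured members was 4.73, 3.18 and 3.95 in the prolonged tumors, against 4.91, 2.74, 2.84 and 2.88 in the shorter ones, so the highest tumor was the shorter tumor C4. Of the 24 members tested, 1 was higher (against 4.41% of all tested probe sets) and 0 lower at an unadjusted p under 0.05. The median difference of 0.57 was 1.15 without C4 and 0.22 without C9. Cxcl9, an interferon-induced chemokine for T cells, read 10.80, 5.87 and 9.39 in C9, C10 and C11, against 10.25, 5.06, 3.67 and 4.07 in C4, C5, C7 and C8. Iigp1, a GTPase that acts on vacuoles of intracellular pathogens, read 7.46, 4.99 and 6.94, against 7.62, 3.26, 3.87 and 2.89. Gbp4, a guanylate-binding protein, differed by 1.91 with the same 3 tumors high. T and NK cell genes had scores of 3.20, 1.72 and 2.35 in the prolonged tumors, against 2.87, 1.80, 1.66 and 1.84 in the shorter ones. Of the 21 measured, 13 were tested, and 0 passed an unadjusted p under 0.05 in either direction.

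A neutrophil and cytokine signal came from C9. Over 24 inflammatory cytokine and activation genes the score was 5.23 in C9, 3.06 in C10 and 3.14 in C11, against 3.69, 2.73, 2.82 and 3.12 in C4, C5, C7 and C8. The median difference was 0.76, and 0.06 without C9. Of the 20 members tested, 3 were higher (against 4.41% of all tested probe sets) and 0 lower at an unadjusted p under 0.05. Il1b, the cytokine interleukin 1 beta, read 7.85, 4.55 and 4.85 in the prolonged tumors, against 5.09, 4.18, 3.04 and 2.99 in the shorter ones. Clec4e, a receptor for mycobacterial and damaged-cell lipids, stood at 7.23 in C9 and at 2.29 or below in the other 6 tumors. For Nos2, the inducible nitric oxide synthase, these values were 6.15 and 2.21. Fpr2, a formyl peptide receptor of phagocytes, read 5.32, 1.46 and 2.67, against 2.56, 1.41, 0.27 and 0.83. The score over 21 neutrophil genes was 3.10 in C9 and 1.69 and 1.62 in C10 and C11, against values between 1.60 and 1.88 in the shorter tumors. Among 28 chemokines 24 were tested, and 4 were higher (against 4.41% of all tested probe sets) and 0 lower at an unadjusted p under 0.05. The median difference over the 28 was 0.68 (0.12 without C9).

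C10 differed from the other prolonged tumors in another set of genes. Th, the rate-limiting enzyme of catecholamine synthesis, read 1.23, 6.57 and 1.35 in C9, C10 and C11, against 1.15, 2.04, 1.53 and 1.90 in C4, C5, C7 and C8. The fetal growth factor Igf2 read 1.89, 7.96 and 2.43, against 1.92, 2.91, 2.36 and 2.18, and the paternally expressed Peg3 read 1.92, 8.50 and 2.57, against 2.71, 3.10, 3.34 and 3.01. In each gene C10 was alone, above every vehicle tumor too, and without it the differences were -0.36 for Th, -0.18 for Igf2 and -0.79 for Peg3. Usp29, a neighbor of Peg3, and the neuronal genes Tubb3 and Dcx behaved alike, with C10 at 4.76, 5.72 and 4.34 and the other 6 tumors at 0.88, 2.36 and 1.87 or below. C10 was also highest in the mean signal of both lists. Over 24 measured genes of the neuroblastoma lineage and of neurons the score was 3.39 in C10. It was 2.67 in C5, the next compared tumor, and 2.80 in the highest vehicle tumor. Over 17 imprinted growth genes the score was 4.33 in C10, against 2.70 in C7, the next compared tumor, and 2.73 in the highest vehicle tumor. Between the groups, 10 differences of the 24 lineage and neuronal genes were positive and 14 negative, with a median of -0.04. Of the 9 that were tested, 0 passed an unadjusted p under 0.05 in either direction by limma. Mouse Mycn was between 1.60 and 2.24 in all 7 tumors. Whether these signals came from mouse or human transcripts was not tested. Impact, an imprinted regulator of translation, was the member of the imprinted list with the smallest p, with 4.69, 6.35 and 4.56 in the prolonged tumors, against 4.32, 3.47, 3.98 and 3.86 in the shorter ones. Its groups did not overlap, and the difference of 1.30 was 0.72 without C10.

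Mki67, which encodes the marker of cycling cells Ki-67, read 5.53, 7.33 and 5.20 in the prolonged tumors, against 5.18, 4.36, 3.95 and 4.43 in the shorter ones (difference 1.54, adjusted p = 0.641 by limma). C11 barely exceeded C4, and without C10 the difference was 0.89. Of 25 measured cell cycle genes, 11 passed the filter, and of these 1 was higher and 0 lower at an unadjusted p under 0.05. A single call is too few to set apart from the 4.41% of all tested probe sets called higher. Over all 25 measured genes, 22 differences were positive and 3 negative, with a median of 0.20. The like median over 22179 genes, without the filter, was -0.04, and over the tested probe sets it was 0.19. Top2a, the topoisomerase of dividing cells, read 3.95, 3.75 and 3.92, against 3.72, 3.75, 2.62 and 2.94, with C10 and C5 level to the decimals given.

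**Figure D3:**
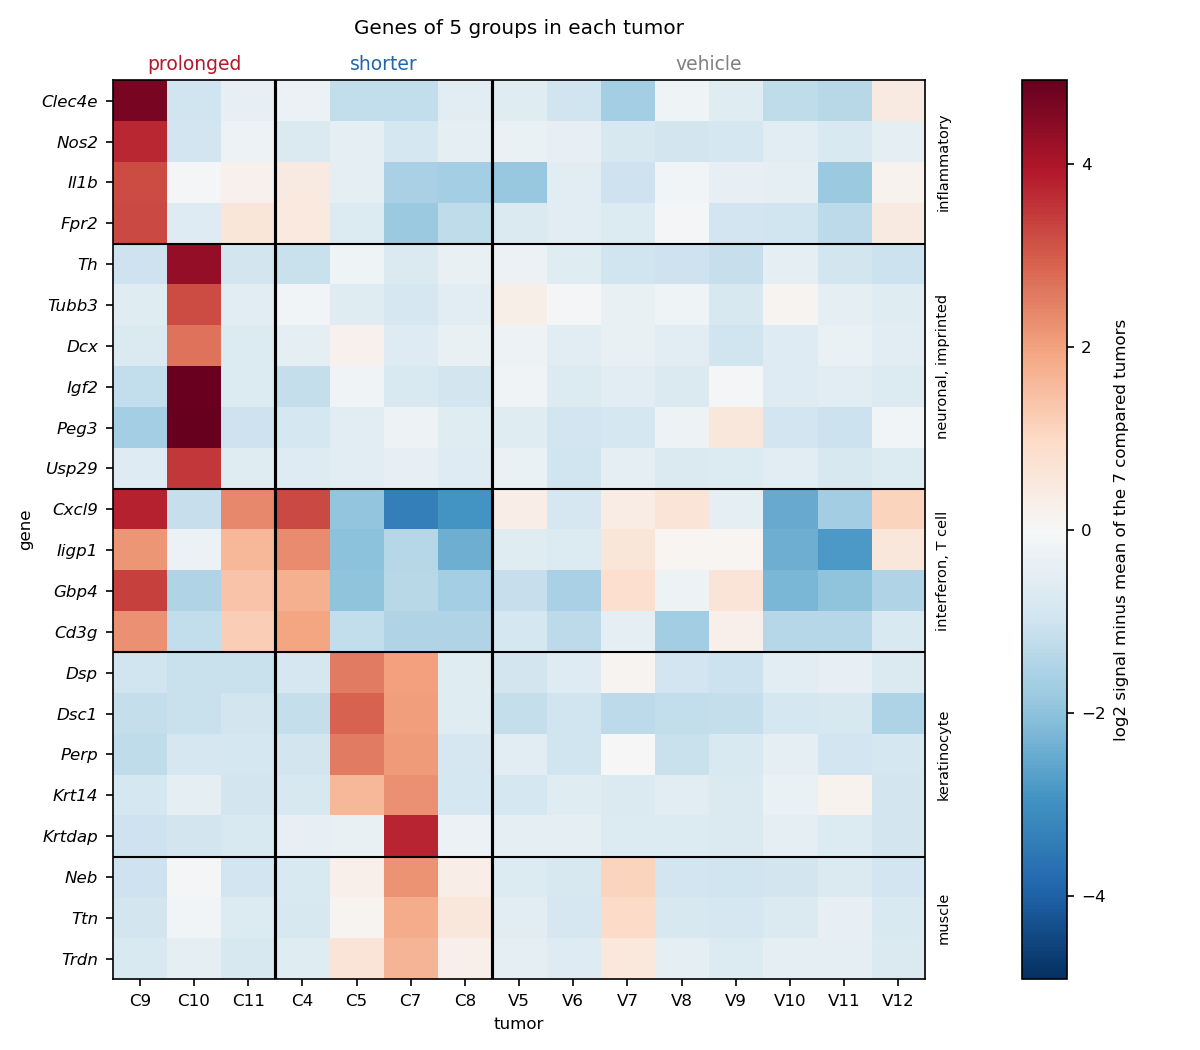
Log2 signal of genes from 5 groups (rows) relative to their mean over the 7 compared tumors (color) in 15 tumors (columns). Inflammatory genes are high in C9, the neuronal and imprinted genes in C10, the interferon and T cell genes in C9, C11 and C4, and the epidermal genes in C5 and C7. Among the epidermal genes, Krtdap is high in C7 and not in C5. Muscle genes are highest in C7 and also raised in the vehicle tumor V7.

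Genes that were lower in prolonged tumors were led by those of the epidermis. No probe set that names 1 gene was lower with p at 0.01 or less. The 12 lower genes of smallest p comprised Ces3a, Dsp, Dsc1, Mir19a, Perp, Mir18, Trdn, Scarna8, Mir188, Spink5, Gm2427 and Dmkn. Dsp, the plaque protein of desmosomes, read 0.92, 0.83 and 0.82 in C9, C10 and C11, against 1.08, 4.48, 3.95 and 1.32 in C4, C5, C7 and C8 (difference -1.85, standard error 0.69, adjusted p = 0.731 by limma). Dsc1, a desmosomal cadherin, read 0.87, 0.95 and 1.13, against 0.88, 4.94, 4.12 and 1.47, and Perp, a desmosomal membrane protein, read 1.18, 1.62 and 1.55, against 1.52, 4.99, 4.54 and 1.62. In all 3 genes C5 and C7 were high while C4 and C8 lay at or near the level of the prolonged tumors. That level was also the level with vehicle, where the medians were 1.25 for Dsp, 0.88 for Dsc1 and 1.62 for Perp. Spink5, a protease inhibitor of the skin barrier, and Dmkn, a protein secreted by the upper epidermis, were highest in the same pair of tumors.

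C5 and C7 differed in the kind of skin gene they held. The keratin gene Krt71 and Tchh, which encodes trichohyalin, both of the inner root sheath of the hair follicle, stood at 6.19 and 6.20 in C5 and at 1.23 and 1.09 or below in the other 6 tumors. Krt10 and Krtdap, of the differentiating epidermis between follicles, stood at 6.52 and 5.41 in C7 and at 1.66 and 1.37 or below elsewhere. Of 15 measured keratinocyte and hair follicle genes 10 were tested. Of these, 0 were higher and 1 lower (against 1.09% of all tested probe sets) at an unadjusted p under 0.05. The score over the 15 was 1.30, 1.46 and 1.51 in the prolonged tumors, against 1.36, 2.41, 3.30 and 1.69 in the shorter ones. The median difference was -0.63, and -0.33 without C7. Skeletal muscle genes followed. Their score was 1.95, 2.63 and 1.94 in C9, C10 and C11, against 2.02, 2.75, 3.62 and 2.82 in C4, C5, C7 and C8, and 14 of 15 differences were negative, with a median of -0.83 (-0.36 without C7). Neb, the giant protein nebulin of thin filaments, read 1.39, 2.31 and 1.47, against 1.65, 2.66, 4.63 and 2.72, and Trdn, which anchors calcium release units in muscle, read 1.15, 1.46 and 1.11, against 1.32, 2.53, 3.57 and 2.16. C7 was the highest tumor in both. Of the 15 muscle genes 12 were tested, and 0 passed an unadjusted p under 0.05 in either direction by limma. The vehicle tumor V7 had a muscle score of 3.50, near that of C7. The part of skin and muscle in the excised tissue was not tested.

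MicroRNA hairpins supplied 3 of the 12 lower genes. Mir18 and Mir19a lie next to each other in the Mir17 to Mir92 cluster, a direct target of MYC proteins, and Mir188 lies on the X chromosome. A processed hairpin yields mature strands that repress messenger RNAs through bases 2 to 8, the seed, shown here in capitals because it decides which targets a strand shares with its relatives. The mature sequences are from RefSeq on GRCm38.p6.
mmu-miR-18a-5p: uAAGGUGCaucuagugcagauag
mmu-miR-18a-3p: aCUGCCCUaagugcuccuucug
mmu-miR-19a-3p: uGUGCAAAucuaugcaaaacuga
mmu-miR-188-5p: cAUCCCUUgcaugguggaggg
mmu-miR-188-3p: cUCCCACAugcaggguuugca
The first 3 map to the plus strand of chr14:115043867-115043889, chr14:115043908-115043929 and chr14:115044048-115044070, and the others to the minus strand of chrX:7248031-7248051 and chrX:7247992-7248012. No seed is shared among the 5. The strand miR-18a-5p shares its seed with miR-18b-5p and miR-19a-3p with miR-19b-3p. The seed of miR-18a-3p also occurs in miR-7069-3p and that of miR-188-5p in miR-7061-3p.

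Mir19a read 4.81, 5.03 and 4.15 in C9, C10 and C11, against 5.25, 6.86, 5.52 and 5.73 in C4, C5, C7 and C8 (difference -1.18, standard error 0.48, adjusted p = 0.801 by limma). Mir18 read 5.15, 5.30 and 5.23, against 5.54, 7.49, 6.00 and 6.41 (difference -1.13, adjusted p = 0.801 by limma). In both, all 3 prolonged tumors lay below all 4 shorter ones, as did 267 (2.63%) of the tested probe sets, and C5 was the highest. The vehicle tumors spanned 4.63 to 5.93 for Mir19a and 4.58 to 6.62 for Mir18, which takes in most of both groups. Mir17 and Mir20a of the same cluster read between 0.55 and 1.67 in the 7 tumors, near the background of the array. Mir188 read 1.44, 1.59 and 1.46, against 1.89, 2.70, 2.13 and 3.10, so that the prolonged values lay within 1.13 to 1.61, the scores of genes silent in these tissues, and the shorter values above them. Of 100 tested miRNA probe sets, 26 differences were positive and 74 negative, whereas 6347 of all 10135 tested probe sets were positive. The miRNA median was -0.20, against 0.19 over the tested probe sets. At an unadjusted p under 0.05, 2 were higher and 3 lower, against 4.41% and 1.09% of all tested probe sets. In either direction this is close to the 5.5% of all. The probe sets measure hairpin or primary transcripts as well as mature strands, which the array does not tell apart. Ces3a, a carboxylesterase, read 1.16, 0.83 and 1.21 in the prolonged tumors, against 1.62, 3.43, 1.68 and 3.07 in the shorter ones, with C5 and C8 high. Scarna8, a guide RNA for modification of spliceosomal RNAs, read 2.39, 2.19 and 2.65, against 3.43, 3.88, 2.75 and 3.53, and the predicted gene Gm2427 differed by -1.12 with the groups overlapping.

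Vessels and stroma differed little between the groups. The scores over 24 endothelial genes averaged 4.01 ± 0.33 in prolonged tumors (SD, n = 3) and 4.13 ± 0.41 in shorter ones (SD, n = 4), and those over 17 mural cell genes 4.50 ± 0.73 and 4.65 ± 0.56. For 27 fibroblast and collagen genes the scores averaged 6.13 ± 0.47 and 6.01 ± 0.60, and for 13 basement membrane genes 5.10 ± 0.43 and 5.09 ± 0.61. In these 4 lists 17, 14, 22 and 11 genes passed the filter, and 0 of them were higher and 0 lower at an unadjusted p under 0.05 by limma. The median differences over all measured members were -0.06, -0.13, 0.11 and 0.03. The lymphatic list (median difference -0.09), the angiogenic ligands (-0.06) and the Notch pathway (-0.04) were as close to 0. With 3 and 4 tumors a difference within these SDs was not detectable.

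The host genes that the study followed up did not separate the groups after adjustment. The largest difference among them was that of Cd68, given above, at 0.94. Jag1, a ligand of Notch receptors, read 4.11, 5.11 and 4.42 in C9, C10 and C11, against 4.59, 4.47, 5.12 and 4.26 in C4, C5, C7 and C8 (difference -0.06, standard error 0.45, adjusted p = 0.968 by limma). Nrp2, a co-receptor for semaphorins and VEGF, differed by 0.48, with C9 (7.22) the highest tumor and a difference of 0.035 without it. Sema5b, a transmembrane semaphorin removed by the filter, differed by 0.10. The endothelial genes Cdh5, Kdr and Tie1 differed by 0.08, -0.12 and -0.58, the angiopoietins Angpt1 and Angpt2 by -0.04 and 0.03, and the smooth muscle actin gene Acta2 by 0.03. Pdgfra, a receptor of fibroblasts, differed by 0.48 and Mmp9, a gelatinase, by 0.69. Tgfb1, which encodes the cytokine TGF-beta 1, read 6.50, 6.27 and 6.25 in the prolonged tumors, against 6.06, 5.07, 6.11 and 5.43 in the shorter ones, so the groups did not overlap, with a difference of 0.67 (standard error 0.44, adjusted p = 0.801 by limma). Tgfbi, a matrix protein induced by TGF-beta, read 8.97, 6.96 and 7.90, against 8.04, 5.13, 6.34 and 5.62. Over 17 measured genes of the TGF-beta pathway, 10 differences were positive and 7 negative, with a median of 0.03. From this list 9 genes were tested. Of these, 1 was higher (against 4.41% of all tested probe sets) and 0 lower at an unadjusted p under 0.05.

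**Figure D4:**
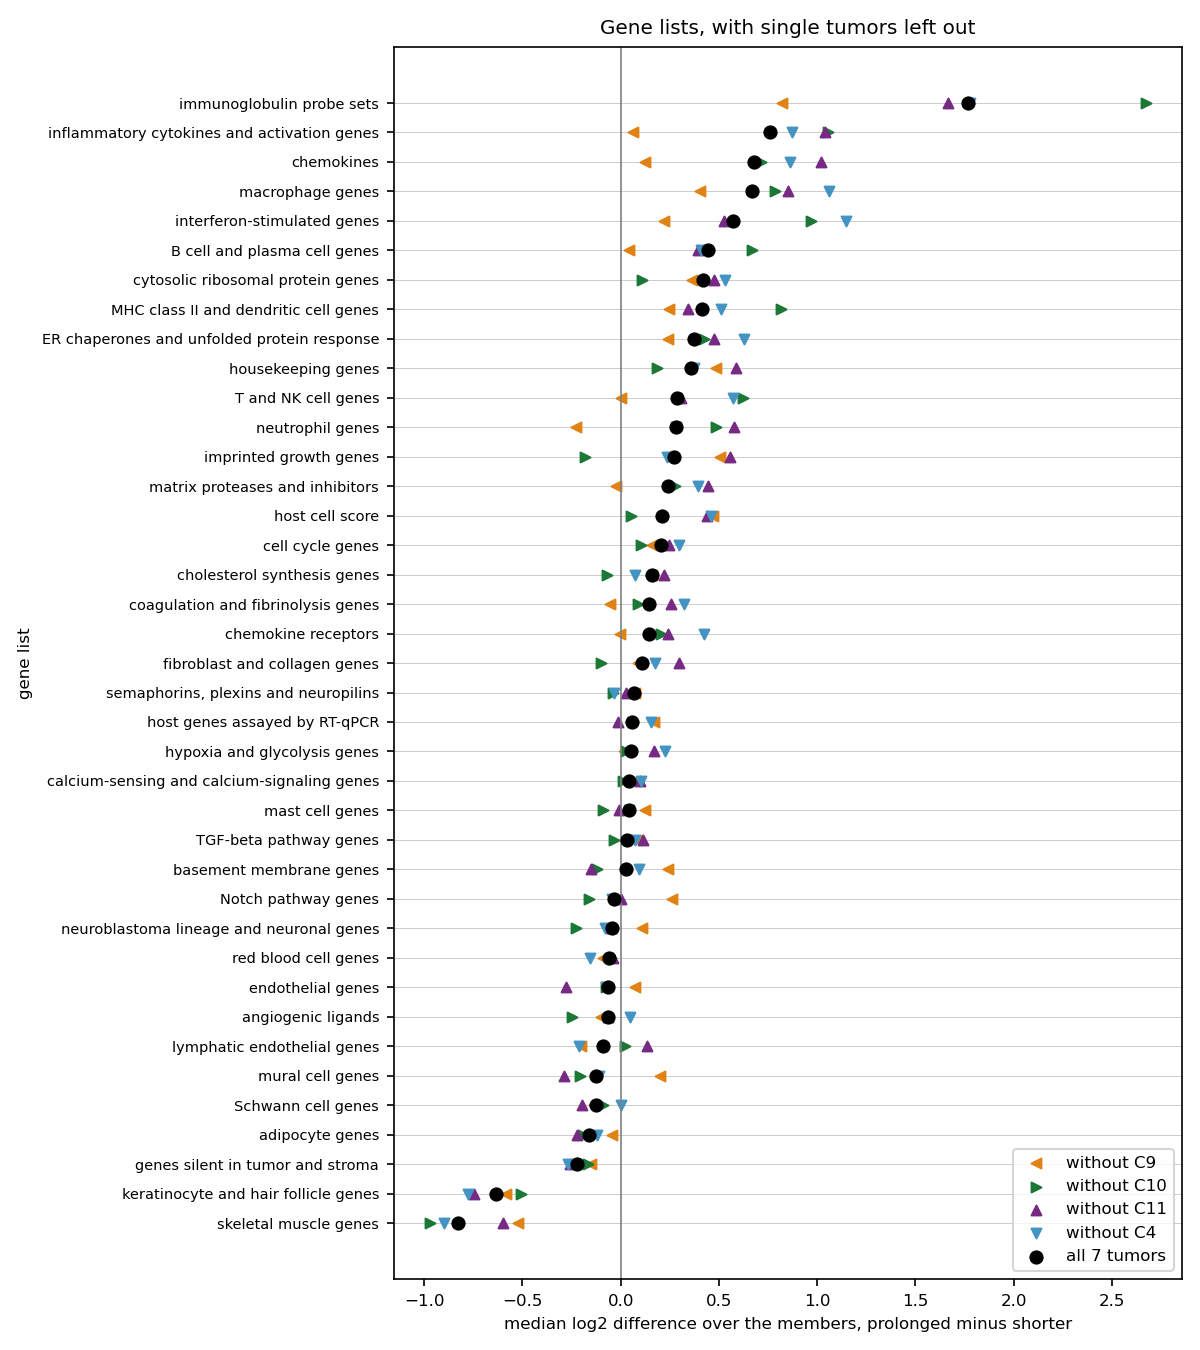
Median log2 difference, prolonged minus shorter (horizontal axis), over the measured members of each gene list (rows), with all 7 tumors (black) and with C9, C10, C11 or C4 left out (colors). The inflammatory list lies at 0.76 with all tumors and at 0.06 without C9, whereas the skeletal muscle and keratinocyte lists stay below 0 in each case shown.

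Matrix proteases and the secretory pathway were examined because fibrosis and stress of the endoplasmic reticulum were questions of the study. Of 20 measured proteases and inhibitors, 15 passed the filter, and of these 1 was higher and 0 lower at an unadjusted p under 0.05. A single call is too few to set apart from the 4.41% of all tested probe sets called higher. The member was Mmp3, a stromelysin, with 6.25, 4.63 and 2.89 in prolonged tumors, against 3.68, 2.09, 3.41 and 3.05 in shorter ones, so that C11 was below most of the shorter tumors. Mmp12, the macrophage elastase, read 7.81, 7.79 and 7.47, against 7.25, 5.48, 7.09 and 7.08, with no overlap. Over 24 genes of chaperones and the unfolded protein response, 20 differences were positive with a median of 0.37. Of the 15 that passed the filter, 1 was higher and 0 lower at an unadjusted p under 0.05. Again a single call is too few to set apart from the background of 4.41%. Herpud1, a component of endoplasmic reticulum-associated degradation, read 5.83, 5.42 and 5.09, against 4.81, 3.45, 5.25 and 4.13. Calr, the lectin chaperone calreticulin, read 7.68, 8.10 and 7.18, against 7.68, 5.95, 6.88 and 6.46. Chac1, a glutathione-degrading target of the same response, read 1.28, 1.54 and 1.41, against 1.73, 2.20, 1.87 and 1.97, near the background of the array. Housekeeping genes differed by a like amount, with a median of 0.36 over 11 measured genes and B2m, the invariant chain of class I molecules, at 11.42, 10.36 and 10.96, against 11.10, 8.94, 9.47 and 8.58. Genes silent in tumor and stroma had a median of -0.22. The part of this wider array spread in the chaperone values was not tested.

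Some list genes that the filter had removed for low variability were lower in prolonged tumors with no overlap, and they are given because of their values. Mxi1, a repressor that competes with MYC for its partner MAX, read 4.58, 4.60 and 4.64 in C9, C10 and C11, against 5.12, 5.14, 5.15 and 5.12 in C4, C5, C7 and C8. The groups stood apart by far more than their SDs of 0.03 and 0.02, with a difference of -0.52 (standard error 0.14, adjusted p = 0.841 by limma without the filter). The vehicle tumors ranged from 4.66 to 5.39, all above the prolonged tumors. Twist1, a transcription factor of mesenchymal cells, read 5.80, 5.46 and 5.46, against 6.11, 6.03, 6.40 and 6.01, a difference of -0.56 (adjusted p = 0.841 by limma without the filter). Over all 22179 genes, 1103 (4.97%) lay lower and 404 (1.82%) higher in prolonged tumors with no overlap, so that such separation was common at this number of tumors.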

How the data were processed

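RNA of whole LA-N-1 xenografts was hybridized to Affymetrix Mouse Gene 2.1 ST arrays. The authors deposited log2 signals after Robust Multi-array Average (RMA) normalization over the series, and the submitters' processing notes name limma 3.24 and R 3.2. Scanner files were not used here. Of 40543 probe sets, 23448 name 1 gene, 1619 list more than 1 entry and 15476 are unnamed here. Gene symbols are those of GEO's platform annotation, with 23255 also found in RefSeq. From the deposited log2 values, probe sets in the lower 50% of mean signal were removed, then the lower 50% by SD of the rest, over the 7 tumors. The methods name removal of low signal and low variability at 50% each, and the SD, the order and the use of the 7 tumors are a reading made here. Prolonged (n = 3) and shorter (n = 4) tumors were compared with limma 3.58.1 in R 4.3.3, with Benjamini-Hochberg adjustment over 10135 probe sets. Each tumor came from its own mouse. The number of arrays limits the precision. Where a gene is removed by the filter, its values are from the fit without it. Counts of list members at an unadjusted p cover only the members that passed the filter. A gene in a list was read from its probe set of highest mean signal. List scores are mean log2 signals and carry no test. Correlations between the 7 arrays ranged from 0.883 to 0.942. The procedure was tested on simulated data. Named genes are the 12 higher and 12 lower of smallest p that name 1 gene, up to 6 members of smallest p per list, and host genes named by the study. Members and lists were chosen with earlier results of these data known, and genes outside the rule (Ptprc, Cd5l, Fcgr4, Clec4a1, Adamdec1, Cd244a, Slpi, H2-M2, Xist, the immunoglobulin group, Krt10, Krt71, Tchh, Adgre1, Mycn, Mir17 and Mir20a among them) after their values were seen. Alternatives covered filters, variance models, array weights, scaling, the inclusion of C6, a host score covariate, a fit with vehicle tumors and leaving out each tumor.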

Additional observations from a re-analysis of the deposited data

Results flagged for a closer look

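Some tumors stood apart from the rest of their own group, by a gap that was most of the group's range. In 156 groups of values examined, 13 held such a tumor, and chance alone gives about 1 in 20. Within the shorter group C4 was the highest for the interferon-stimulated genes, with a score of 4.91 against 2.88 in the next tumor, and for the T and NK cell genes, with 2.87 against 1.84. C4 was likewise highest for Cxcl11 (2.63 against 1.52) and Gbp4 (4.87 against 1.76). C7 was highest for Krtdap, with 5.41 against 1.37, and C5 was lowest for Mmp12, with 5.48 against 7.08. The 3 prolonged tumors are too few for such a check.

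Among the vehicle tumors V9 was highest in 4 lists. Its score was 4.05 for B cell and plasma cell genes (next 2.86), 2.22 for mast cell genes (next 1.77), 4.50 for lymphatic endothelial genes (next 3.15) and 5.20 for adipocyte genes (next 3.59). V7 was highest for skeletal muscle genes, at 3.50 (next 2.28), and V6 for Schwann cell genes, at 2.14 (next 1.94). V11 was lowest for imprinted growth genes, at 2.38 (next 2.57).

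C6, the cinacalcet tumor set aside, exceeded the highest vehicle tumor in 4 list scores. These were 5.67 against 5.53 for basement membrane genes, 4.07 against 4.03 for the TGF-beta pathway, 3.57 against 3.53 for the Notch pathway and 5.83 against 5.77 for the host genes assayed by RT-qPCR.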

How the results depend on the processing

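No paired analysis was possible because each tumor came from its own mouse and the labels pair no tumors. The count at an adjusted p under 0.05 was 0 in 12 of the 14 fits of other kinds. It was 4 with robust empirical Bayes, all unnamed here, and 64 in a fit of probe sets that name 1 gene, where the prior degrees of freedom were 10559 rather than 12.7, so that a gene's own spread had almost no weight. Leaving out 1 tumor gave 0 to 111, with prior degrees of freedom of 15.7 to 48.3, so that a gene's own spread had less weight. Leaving out C9 and C4 together, chosen after seeing the data, gave 92 with infinite prior degrees of freedom, so that a gene's own spread had no weight. At an unadjusted p of 0.01 or less the count was 155 of 10135 probe sets, with 101.4 by chance. It was 339 of 40543 with no filter and 162 of 20271 with the signal filter alone, both under a share of 0.01. Of 10135 it was 96 with the filter over 15 tumors, 98 with robust empirical Bayes and 101 with the host score as a covariate. It was 105 with the interquartile range as filter, 106 with 3 groups in one fit and 293 without C9 and C4. With a variance trend, array weights, both scalings or C6 included it was 140 to 184. Leaving out 1 tumor gave 151 to 435. Of these, higher probe sets numbered 132, and 81 with the interquartile range as filter, 74 with the filter over 15 tumors, 81 with 3 groups in one fit, 76 with robust empirical Bayes, 81 with the host score and 239 without C9 and C4 (123 to 386 without 1 tumor). Lower ones numbered 23, and 152 with no filter, 64 with the signal filter alone, 12 among probe sets that name 1 gene and 54 without C9 and C4 (24 to 49 without 1 tumor). Of 78 named probe sets, the direction held in 1168 of 1170 values under these alternatives. The exception was Jag1, at 0.0038 with each array set to the same median and 0.15 without C9 and C4. Leaving out 1 tumor gave Jag1 values from -0.35 (C10) to 0.16 (C9), with 0.00087 without C11 and 0.11 without C7. It gave -0.36 to 2.31 for Th, -0.18 to 2.85 for Igf2 and -0.79 to 2.50 for Peg3, each lowest without C10 and highest without C9. List medians moved by less than the pooled SD of the list score within the groups in 372 of 380 values. A tumor that stands apart itself widens that SD, so the count is no measure of stability. The inflammatory median, 0.76 with all tumors and 0.06 without C9, still counted among the 372. With 3 tumors against 4, no exact test can go below p = 0.0286.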

Other observations

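Each of the 7 compared tumors had genes that exceeded the other 6. In C10 these included Agtr2, a receptor for angiotensin II (5.34, next 1.56), Slc38a4, an amino acid transporter (5.59, next 1.07), and the kinase gene Dgkk (5.33, next 1.71). C9 held Acod1, which makes itaconate in activated macrophages (6.23, next 2.15), and C11 held Lipg, which encodes endothelial lipase (5.70, next 2.87), and Kit, a receptor of mast cells and other precursors (4.75, next 3.65). C4 held the interferon-induced Isg15 (3.90, next 2.53) and Bst2 (5.65, next 4.07). In C8 the platelet chemokine gene Ppbp read 6.70 (next 4.35), and the hairpins Mir200c and Mir34b read 3.48 and 5.66 (next 1.27 and 3.47). These genes were chosen for their values and carry no test.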
